A study of Sus scrofa with 8 samples.

Results

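The regions described here are the m6A peaks that the authors' peak lists place in coding sequence, chosen by the location written beside each peak. The 4 adipose lists held 47229 such coding peaks among 64752 peaks of any location, in 9039 genes. The remaining peaks were 13346 in the 3' UTR, 3806 in the 5' UTR and a few in UTRs with no end named. A further 4 peak lists, whose names match none of the samples described here, were not analysed here, so sharing between tissues was not measured.

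N6-methyladenosine (m6A) is a methyl group that a METTL3 and METTL14 writer complex adds to adenosines within mRNA. The mark is best known near stop codons, in 3' UTRs and in long internal exons, and coding sequence holds many of its sites. In coding sequence it is studied for its links to codon decoding, translation and mRNA decay, and in fat tissue the pathway has been studied for adipocyte formation through the demethylase FTO.

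The tissue was adipose tissue of male pigs aged 180 days, from 2 Jinhua animals, a breed described as fatty, and 2 Landrace animals, a breed described as leaner. Each animal gave an m6A immunoprecipitation (IP) library and an input library, 8 libraries in all, from mRNA that was sonicated for the IP and pulled down with an m6A antibody. The labels give no other treatment and no part of the body beyond the tissue. The animals are called Jinhua 1, Jinhua 2, Landrace 1 and Landrace 2 by their replicate numbers.

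The adipocyte list varied widely in level, from RETN, which encodes resistin and had at most 1.81 FPKM, to genes such as PLIN1. PLIN1, which coats the lipid droplet, had 1764 and 2370 FPKM (a level per kilobase and per library size) in the Jinhua animals and 5317 and 2957 FPKM in the Landrace animals. Markers of skeletal muscle stood apart in Landrace 2: the 16 matched genes summed to 124.5 and 174.0 FPKM in the Jinhua animals, against 108.9 FPKM in Landrace 1 and 3385 FPKM in Landrace 2. Cells of a type being fewer and RNA per cell being less cannot be told apart in bulk tissue. The Landrace 1 list was the shortest of the 4, with 8909 peaks against 16116 to 20688 in the other animals, and each count of shared or missing peaks below depends on that length. The lists carry no read numbers, and library depth is unknown.

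Coding peaks numbered 15069 in Jinhua 1 and 11757 in Jinhua 2, against 6388 in Landrace 1 and 14015 in Landrace 2. They made up 72.8% and 73.0% of the peaks of the Jinhua animals and 71.7% and 73.6% of those of the Landrace animals, so the Jinhua shares lay between the Landrace shares. The mean share was 72.9% ± 0.0799 in Jinhua and 72.7% ± 1.35 in Landrace (SD, n = 2 animals each; two-sided exact permutation test, p = 1, where the smallest p that 2 animals against 2 allow is 0.33). Wilson 95% intervals for the 4 shares, which cover counting error only, had their lowest bound at 70.8% and their highest at 74.2%.

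The location of a peak went by its last base. On the 3225 transcripts that hold both coding and 3' UTR peaks over the 4 lists, the labels were out of order along the transcript on 156 when peaks were placed by their first base, on 38 by their middle and on 0 by their last base. The same held at the other boundary: on 1304 transcripts with 5' UTR and coding peaks, 101 were out of order by the first base, 10 by the middle and 0 by the last. A peak that crosses the stop codon therefore stands in the lists as a 3' UTR peak, and one that crosses the start codon stands as a coding peak. Of the 3' UTR peaks, at least 5.04% and 9.45% in the Jinhua animals and 11.0% and 6.09% in the Landrace animals reached back into sequence that another peak of the same transcript marks as coding. Of the coding peaks, at least 1.11% and 1.94% in Jinhua and 1.72% and 1.23% in Landrace began in 5' UTR.

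Of the steps of 100 bases up to base 2000, the first held the most coding peak starts in each animal. These counts were not adjusted for how many transcripts reach each step. Coding peaks that started within the first 200 bases are called early here. They were 18.6% of the coding peaks in Jinhua 1 and 20.2% in Jinhua 2, against 22.7% in Landrace 1 and 20.8% in Landrace 2. Both Jinhua shares were below both Landrace shares, with means of 19.4% ± 1.08 and 21.7% ± 1.38 (SD, n = 2 each). The difference was -2.34 percentage points, and its two-sided exact permutation p of 0.33 is the smallest the design allows. In genes with a coding peak in all 4 lists, the early share was 15.8% and 17.0% in the Jinhua animals and 21.3% and 18.2% in the Landrace animals. Counted by gene in place of by peak, the order of the breeds varied with input level. Of coding-peak genes at 20 to 50 FPKM, 39.9% and 40.6% had an early peak in Jinhua, against 36.2% and 45.3% in Landrace, and the breeds overlapped. At 100 to 200 FPKM the shares were 49.5% and 48.2% in Jinhua, both below the 52.4% and 53.7% in Landrace. That was the only level from 1 FPKM upward at which the breeds did not overlap. At each other level Landrace 1 had the lowest share of the 4 animals.

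**Figure D1:**
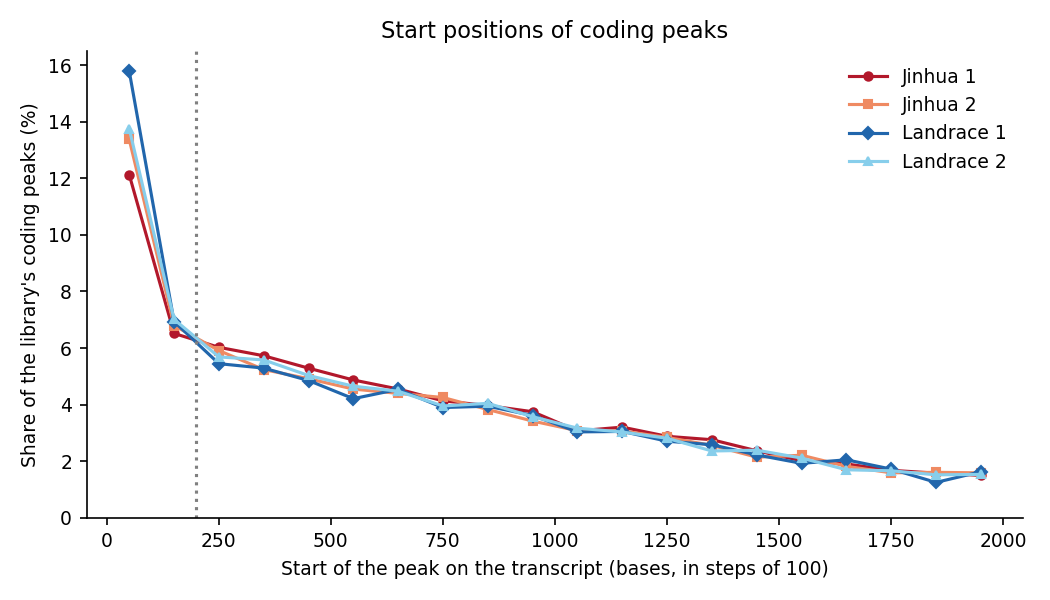
Share of each library's coding peaks (%, vertical axis) by the first base of the peak on its transcript, in steps of 100 bases up to base 2000 (horizontal axis); each line is an animal and the dotted line marks base 200. The first step holds the highest share in each of the 4 libraries, and the curves fall together after it.

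Many early peaks began at the first base of the model itself. Coding peaks that start at base 1 were 4.68% and 4.34% of all coding peaks in Jinhua and 6.04% and 5.32% in Landrace, so coding sequence was reached within a peak's width of the first base in these models. Transcripts with an early coding peak seldom had a 5' UTR peak in any list: 4.98% and 7.97% of the early peaks in Jinhua and 6.20% and 5.02% in Landrace lay on such a transcript. For later coding peaks these shares were 17.6% and 20.3% in Jinhua and 18.8% and 16.2% in Landrace. A coding peak ends in coding sequence, so an early one leaves little room before it for a 5' UTR peak. The lower share of early peaks therefore follows in part from how early is defined. How far the transcript models lack 5' UTR sequence was not tested, because model lengths were not used here.

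A coding peak in all 4 lists was found in 3128 genes, and RPS27, EEF1A1, VIM, RPS12 and FASN were among the best expressed of them with a symbol. VIM, vimentin of the intermediate filaments, had 3 and 2 coding peaks in Jinhua and 2 and 2 in Landrace. VIM peaks at 581-838 and 535-737 in Jinhua and at 533-725 and 534-749 in Landrace overlapped in all 4 animals.

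An early coding peak was found in 4195 genes in at least 1 list and in 739 genes in all 4. The 6 with a symbol and the highest lowest input level among the 739 were genes of translation and of metabolism. RPS27, a protein of the small ribosomal subunit, had a peak at bases 1-100 in all 4 animals. EEF1A1, the elongation factor that carries aminoacyl-tRNA to the ribosome, had an early peak at 73-226 and 73-276 in the Jinhua animals and at 70-227 and 73-226 in the Landrace animals. RPS27A, which encodes a fusion of ubiquitin and a ribosomal protein, had peaks at 185-340 and 186-341 in Jinhua and at 191-326 and 175-330 in Landrace. These 3 genes held their early peak at nearly the same place in the 4 animals. RPS12, another protein of the small subunit, varied more, with peaks at 1-215 and 139-250 in Jinhua and at 1-110 and 21-213 in Landrace. GLUL, the glutamine synthetase, began at base 1 and base 11 in Jinhua and at base 2 and base 1 in Landrace. FASN, the fatty acid synthase, had early peaks at 118-273 and 154-342 in Jinhua and at 137-350 and 137-300 in Landrace. Ribosomal protein genes have many near-identical copies in mammals, so the assignment of their peaks is uncertain.

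Most genes with a coding peak had few of them. A gene with any held 1.98 and 1.88 coding peaks on average in the Jinhua animals and 1.64 and 1.99 in the Landrace animals. The breed means were 1.93 ± 0.0774 and 1.81 ± 0.249 (SD, n = 2 each; two-sided exact permutation test, p = 1), and without Landrace 1 the difference turned to -0.0603. Genes with a single coding peak made up 51.2% and 54.7% in Jinhua and 61.9% and 51.1% in Landrace, and genes with 5 or more made up 5.97% and 5.06% in Jinhua and 2.56% and 6.02% in Landrace. The highest single-peak share and the lowest share of genes with many peaks were both those of the shortest list. Median start positions were 821 and 817 in Jinhua and 771 and 796 in Landrace.

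The genes with the most coding peaks encode very large proteins. DST, which encodes dystonin, a linker of cytoskeletal filaments, had 36 and 27 coding peaks in the Jinhua animals and 20 and 34 in the Landrace animals. MACF1, which crosslinks microtubules and actin, had 29 and 29 in Jinhua and 12 and 28 in Landrace. KMT2D, a histone H3 methyltransferase, had 19 and 13 in Jinhua and 11 and 18 in Landrace, and its relative KMT2B had 9 and 11 in Jinhua and 9 and 9 in Landrace. In DST and KMT2D the lowest number was that of Landrace 1, while KMT2B had equal numbers in the Landrace animals. HUWE1, a ubiquitin ligase, had 14 and 13 in Jinhua and 10 and 12 in Landrace. SRRM2, a protein of nuclear splicing speckles, had 10 and 10 in Jinhua and 8 and 12 in Landrace. The Notch receptor gene NOTCH2, the kinase gene WNK1 and the proline-rich protein genes PRRC2B and PRRC2C completed the 10 genes with the highest minimum, with 7 to 13 coding peaks in each animal. Input levels of these 10 genes ran from 6.23 FPKM for KMT2B in Jinhua 2 to 84.5 FPKM for HUWE1 in Jinhua 1, well below the levels of the ribosomal protein genes. DST, MACF1, HUWE1, KMT2B and WNK1 had 0 peaks in the 3' UTR in every list.

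Coding and 3' UTR peaks had nearly the same width. The median width of coding peaks was 156 and 158 bases in the Jinhua animals and 163 and 156 in the Landrace animals, against 155, 157, 160 and 156 bases for 3' UTR peaks in the same order of animals. The mean difference, coding minus 3' UTR, was 1.25 ± 1.26 bases (SD over 4 animals; above 0 in 3 of 4; exact sign-flip permutation test, two-sided, p = 0.25). With 4 animals the smallest p of this test is 0.13. Widths of exactly 100 bases were 5.35% and 6.03% of coding peaks in Jinhua and 5.70% and 4.64% in Landrace.

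Coding peaks that ran directly into a 3' UTR peak of the same transcript were rare. They numbered 105 and 146 in the Jinhua animals and 40 and 91 in the Landrace animals, or 0.697% and 1.24% of coding peaks in Jinhua and 0.626% and 0.649% in Landrace. Both Jinhua shares were above both Landrace shares, with means of 0.969% ± 0.385 and 0.638% ± 0.0164 (SD, n = 2 each; two-sided exact permutation test, p = 0.33). Jinhua 2 stood far above the other 3 animals, and without it the difference was 0.0591 percentage points, against 0.332 with it. Within 200 bases of a 3' UTR peak lay 2.68% and 3.55% of coding peaks in Jinhua and 2.65% and 2.47% in Landrace. A 3' UTR peak anywhere downstream on the transcript was found for 30.0% and 27.0% in Jinhua and 22.0% and 27.7% in Landrace. An abutting pair occurred in 308 genes in at least 1 list, and in 0 genes in all 4 lists. Coding peaks that abutted another coding peak were more common, at 11.1% and 14.5% in Jinhua and 9.28% and 12.1% in Landrace.

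Some overlapping peaks had different labels in different animals. Overlapping peaks were coding in some animals and 3' UTR in others at 372 loci, and coding in some and 5' UTR in others at 323. LEP, the gene of the adipocyte hormone leptin, is such a case, chosen as an example after its values were seen. Its single peak lay at 351-530 and 364-530 in the Jinhua animals, where it is listed as 3' UTR, and at 355-521 and 370-523 in the Landrace animals, where it is listed as coding. The 4 LEP peaks overlapped for most of their length, so at LEP the breeds differed in label and not in the presence of a peak. Such a split by breed was uncommon among the 189 of the 372 loci that had a peak in all 4 animals. Coding in both Jinhua animals and 3' UTR in both Landrace animals were 6 of them, and the reverse, as in LEP, were 13. For 5' UTR the counts were 19 and 8, of 136 loci with both labels and a peak in all 4 animals.

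SCD, the desaturase that makes oleate from stearate, changed label at its start codon. Its first peak ended at base 616 in Jinhua 1 and at base 606 in Landrace 2 and was listed as 5' UTR there. In Jinhua 1 a coding peak followed at 617-769. In Jinhua 2 the first peak ran to base 771 and in Landrace 1 to base 719, and it was listed as coding. The label thus differed within each breed. PPARG, the master regulator of adipocyte formation, had 4 and 1 coding peaks in the Jinhua animals and 1 and 3 in the Landrace animals. A peak that begins between bases 1375 and 1401 was present in Jinhua 1, Jinhua 2 and Landrace 1, while the peaks that begin at 157 and 161 were found in Jinhua 1 and Landrace 2.

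**Figure D2:**
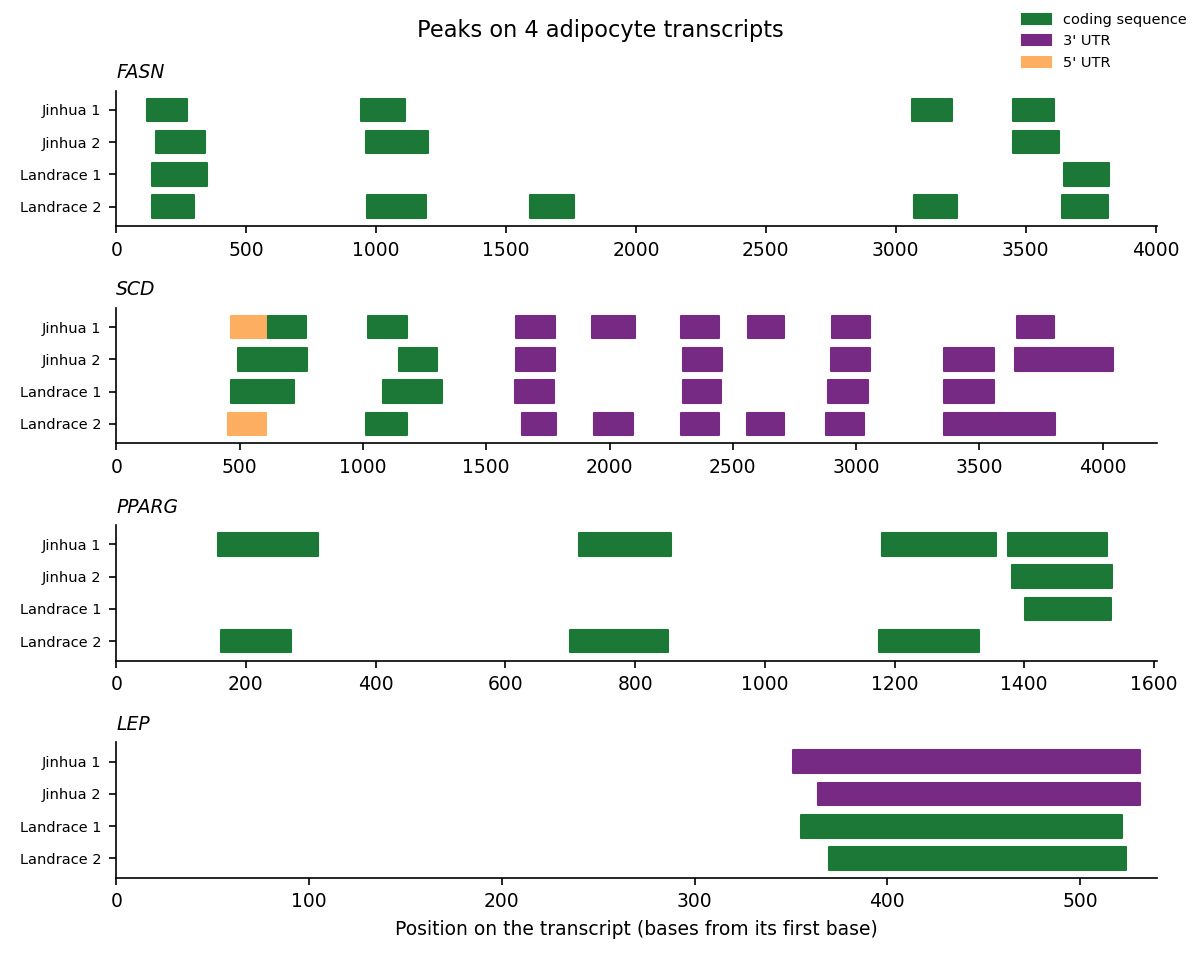
Peaks on the transcripts of FASN, SCD, PPARG and LEP in each animal, drawn to scale from the first base of the transcript model (horizontal axis, bases); bars are peaks and their colour is the listed location. In LEP the peaks of all 4 animals overlap, and they are listed as 3' UTR in Jinhua and as coding in Landrace.

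Genes with a coding peak stood higher in the input than genes with peaks elsewhere. The median input FPKM of genes with a coding peak was 16.5 and 18.0 in the Jinhua animals and 28.1 and 16.3 in the Landrace animals. Genes whose peaks all lay outside coding sequence had 11.7 and 12.9 FPKM in Jinhua and 20.9 and 11.8 FPKM in Landrace. On the log2(FPKM + 1) scale the mean difference was 0.44 ± 0.02 (SD over 4 animals), and it was above 0 in 4 of 4 animals (exact sign-flip permutation test, two-sided, p = 0.13, the smallest possible, or 0.19 after Benjamini-Hochberg adjustment over 6 such comparisons).

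Genes with an early coding peak stood above genes with later ones. Their median input level was 22.4 and 25.0 FPKM in Jinhua and 37.4 and 22.3 FPKM in Landrace, against 13.8, 15.1, 24.0 and 13.4 FPKM for genes whose coding peaks all began later. The mean log2(FPKM + 1) difference was 0.67 ± 0.03 (SD over 4 animals), above 0 in 4 of 4 animals (exact p = 0.13, adjusted p = 0.19). At 1 to 5 FPKM, 24.5% and 22.4% of coding-peak genes had an early peak in Jinhua, against 17.5% and 24.4% in Landrace. Above 1000 FPKM the shares were 58.4% and 60.4% in Jinhua and 47.2% and 59.4% in Landrace. In Landrace 1 the share was highest at 100 to 200 FPKM, with 52.4%, and it was lower above that level.

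The share of genes that had a coding peak first climbed with input level and then fell back. At 1 to 5 FPKM it was 28.2% and 18.2% in the Jinhua animals and 3.04% and 24.1% in the Landrace animals. At 100 to 200 FPKM it was 78.2% and 76.4% in Jinhua and 65.9% and 73.8% in Landrace. Above 1000 FPKM it was 68.9% and 57.2% in Jinhua and 45.3% and 67.8% in Landrace, lower in each animal than at 100 to 200 FPKM. Genes above 1000 FPKM also held fewer coding peaks each, with means of 1.60 and 1.36 in Jinhua and 1.43 and 1.57 in Landrace, against 2.20 and 2.05 in Jinhua and 1.78 and 2.17 in Landrace at 20 to 50 FPKM. Within a level the Landrace 1 share was the lowest of the 4 animals from 1 FPKM upward.

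**Figure D3:**
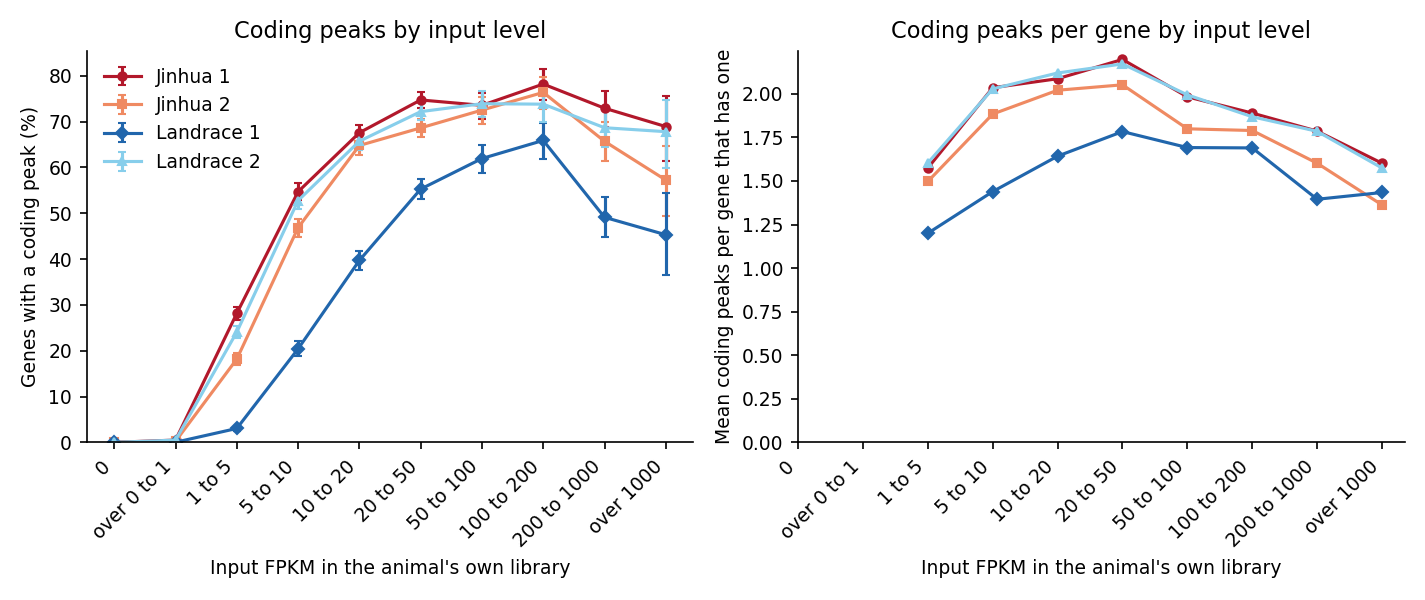
Left, share of genes with a coding peak (%, Wilson 95% interval, counting error only) and right, mean number of coding peaks per gene that has any, by the gene's input FPKM in the animal's own library (horizontal axis, steps of unequal width); each line is an animal. The left curves are highest between 50 and 200 FPKM, and Landrace 1 lies below the others from 1 FPKM upward on the left.

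Coding peaks were found again in other animals about as often as 3' UTR peaks. A coding peak overlapped a peak of another animal by at least 1 base in 54.8% and 60.4% of cases in the Jinhua lists and in 76.1% and 56.7% in the Landrace lists, averaged over the other 3 animals. For 3' UTR peaks the shares were 51.7% and 59.8% in Jinhua and 77.9% and 58.5% in Landrace. Coding minus 3' UTR was 0.0281 ± 2.35 percentage points (SD over 4 animals; exact sign-flip permutation test, p = 1). It was 3.11 and 0.616 in the Jinhua animals and -1.87 and -1.74 in the Landrace animals.

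Averaged over the other 3 animals, early coding peaks recurred more often than later ones in 4 of 4 animals. The shares were 58.5% and 63.3% for early peaks in Jinhua and 77.4% and 57.9% in Landrace, against 53.9% and 59.7% in Jinhua and 75.7% and 56.4% in Landrace for later peaks. The mean difference was 2.86 ± 1.53 percentage points (exact sign-flip permutation test, two-sided, p = 0.13, adjusted p = 0.19), and the genes of early peaks were also the more highly expressed ones. Single pairs of animals did not all follow the average: of the peaks of Landrace 2, 72.5% of early and 75.3% of later ones were found in Jinhua 1. Of the peaks of Landrace 1, 76.1% of early and 76.0% of later ones were found in Jinhua 1, 70.2% and 70.9% in Jinhua 2, and 86.0% and 80.1% in Landrace 2. Coding peaks that abutted a 3' UTR peak recurred in 68.9% and 63.2% of cases in Jinhua and 78.3% and 67.0% in Landrace, 7.43 ± 5.83 points above other coding peaks (exact p = 0.13). This last difference rests on the overlap rule: it was -2.05 points when 50% of the shorter peak had to overlap.

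**Figure D4:**
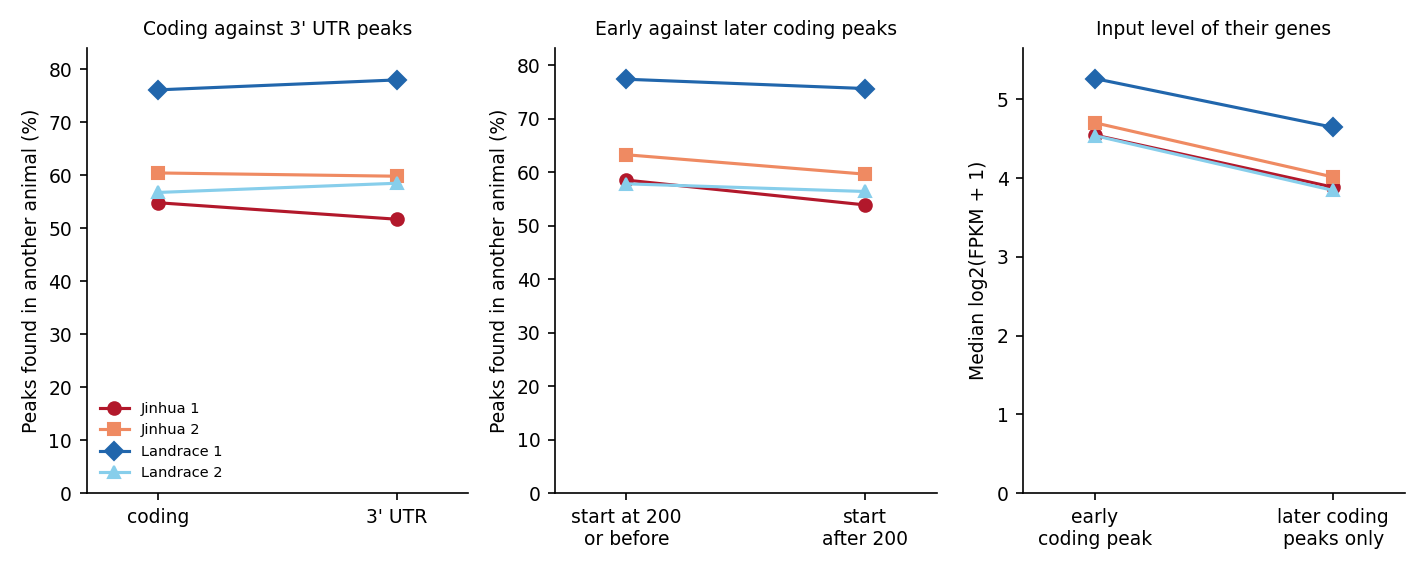
Each animal's coding peaks against its 3' UTR peaks (left) and its early against its later coding peaks (middle) by the share found in another animal (%, mean over the other 3 animals), and the median input level, log2(FPKM + 1), of genes with an early coding peak against genes with later ones only (right); lines join the values of an animal. The middle and right lines slope down in 4 of 4 animals, and the left lines slope down in Jinhua and up in Landrace.

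Each animal found its coding peaks again most often in an animal with a long list. Of the coding peaks of Jinhua 1, 60.5% overlapped a peak of Jinhua 2, 34.2% a peak of Landrace 1 and 69.7% a peak of Landrace 2. Of those of Jinhua 2, 75.3% overlapped a peak of Jinhua 1, 40.4% a peak of Landrace 1 and 65.5% a peak of Landrace 2. Landrace 1 found 81.4% of its coding peaks in Landrace 2, 76.0% in Jinhua 1 and 70.8% in Jinhua 2. Landrace 2 found 74.7% of its coding peaks in Jinhua 1, 56.0% in Jinhua 2 and 39.4% in Landrace 1. Except for Jinhua 2 and Landrace 1, the highest overlap was thus with an animal of the other breed. Coding peaks seen in 0 other animals made up 16.2% and 16.1% in Jinhua and 7.44% and 16.0% in Landrace, and peaks with the same start and end in another animal made up 5.72% and 3.39% in Jinhua and 2.46% and 5.38% in Landrace.

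Merged where they overlapped on a transcript, the coding peaks gave 20231 loci of 27320 loci of any location. Of the coding loci, 3921 (19.4%) had a peak in all 4 animals, 4248 in 3, 5013 in 2 and 7049 (34.8%) in a single animal. Of the other loci, 16.1% had a peak in all 4 animals and 41.8% in a single animal. A locus counts as coding if any of its peaks is listed so, and 1012 coding loci also hold a peak of another label. More animals at a locus give more chances of a coding label, so these shares are not on equal terms. Among coding loci shared by exactly 2 animals, 2456 belonged to Jinhua 1 and Landrace 2, 1415 to the Jinhua animals and 484 to the Landrace animals. The commonest pair was thus the animals with the 2 longest lists. Loci whose first peak was early were in all 4 animals in 24.3% of cases, against 18.0% of later loci. The share in all 4 animals ran with the lowest input level over the animals, from 4.95% at 1 to 5 FPKM to 39.9% at 100 to 200 FPKM.

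**Figure D5:**
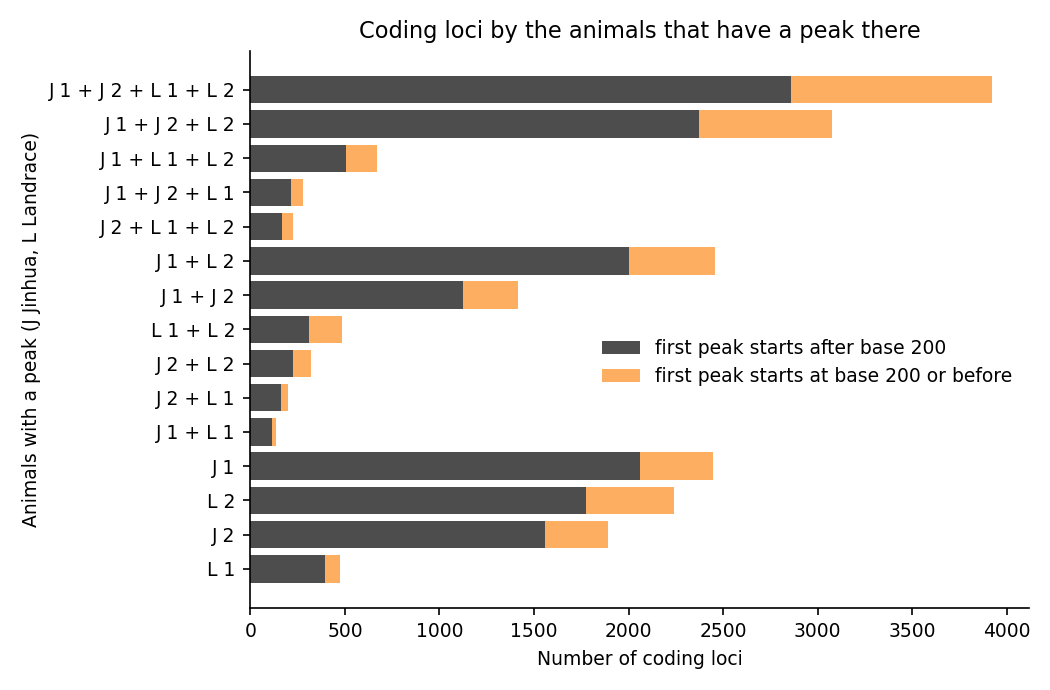
Number of coding loci (horizontal axis) for each combination of animals that have a peak there (J Jinhua, L Landrace), split by whether the first peak of the locus starts after base 200 or at base 200 or before. Loci of all 4 animals are the most frequent at 3921, and the pair of Jinhua 1 and Landrace 2 exceeds the Jinhua pair and the Landrace pair.

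A minority of coding loci followed breed. A peak of any label in both Jinhua animals and in neither Landrace animal was found at 1415 coding loci, or 6.99% of them, against 6.95% of loci of any location. The reverse was found at 484 coding loci, or 2.39%, against 2.32% of loci of any location. Both shares lay near those of all loci, so coding loci did not stand out. With the peak listed as coding in both animals that have it, 1365 Jinhua-only loci in 1188 genes and 459 Landrace-only loci in 427 genes remained, and these are described next. Input levels moved with these sets: at Jinhua-only loci the median gene had 12.3 FPKM in Jinhua and 8.73 FPKM in Landrace, and at Landrace-only loci it had 18.5 FPKM in Jinhua and 25.7 FPKM in Landrace. The gene was at least as high in the breed without the peak at 19.8% of Jinhua-only and 24.4% of Landrace-only loci. Early loci were 20.1% of the Jinhua-only set and 35.3% of the Landrace-only set, against 21.6% of all coding loci. A peak of the breed that lacks the locus lay within 100 bases at 14.5% of Jinhua-only and 22.9% of Landrace-only loci, and the parts of position, level and list length in these counts were not tested.

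Named from the Jinhua-only loci are the 6 genes best expressed in Landrace. Their high level in the animals without the peak is thus part of the choice. FASN had a coding peak at 3450-3607 in Jinhua 1 and 3452-3626 in Jinhua 2, while the Landrace animals had a peak just downstream, at 3646-3820 and 3638-3814. FASN therefore counts in both directions with neighbouring peaks, and its input level was 1637 and 4782 FPKM in Jinhua and 11245 and 4859 FPKM in Landrace. GLUL had a peak at 735-890 and 738-910 in the Jinhua animals alone. Its input was 2161 and 1457 FPKM in Jinhua and 1900 and 1420 FPKM in Landrace, so the breeds overlapped in level. PC, pyruvate carboxylase, which feeds the citrate used for fatty acid synthesis, had a peak at 2061-2170 in both Jinhua animals alone. Its level was 859.8 and 1694 FPKM in Jinhua and 2363 and 1325 FPKM in Landrace. ATP5B, the beta subunit of ATP synthase, had a peak from base 1304 in both Jinhua animals. RPL18, a ribosomal protein gene, had a peak at 23-178 and 18-160 in Jinhua. AOC3, an amine oxidase abundant on adipocytes, counted through partly overlapping peaks at 1801-1925 and 1881-1980 in Jinhua and had 3 other coding peaks in Landrace 2.

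On the Landrace side the named genes were likewise picked for a high level in the Jinhua animals, which lack the peak. YBX1, an RNA-binding protein of the cold-shock family, had a peak at 1-100 in both Landrace animals alone. Its input was 1407 and 1040 FPKM in Jinhua and 723.2 and 870.7 FPKM in Landrace, higher in the animals without the peak. Over all Landrace-only loci, the gene was at least as high in Jinhua at 24.4%. SLC25A3, the mitochondrial phosphate carrier, had its only coding peak in Landrace, at 67-222 and 69-224, while all 4 animals had a 3' UTR peak that begins between bases 1040 and 1068. Its input was 431.8 and 531.8 FPKM in Jinhua and 238.3 and 550.8 FPKM in Landrace, which overlapped. COL3A1, a fibrillar collagen, had a Landrace peak at 1552-1740 and 1551-1650 beside 6 and 5 coding peaks in the Jinhua animals elsewhere on the transcript. COL4A1, a basement membrane collagen, and PSAP, the precursor of the saposins of lysosomes, also had Landrace-only loci, at 1481-1652 and 426-710. The PSAP locus joined 426-680 in Landrace 1 and 591-710 in Landrace 2.

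Genes of lipid synthesis carried coding peaks in most animals. Of the 14 matched genes of fatty acid and triglyceride synthesis, 13 had a coding peak in at least 1 list and 8 in all 4, where 65.4% of the tested genes had one in at least 1 list and 22.8% in all 4. The median level of the 14 genes was 212 FPKM. Among all genes at 200 to 1000 FPKM, 72.9% and 65.7% had a coding peak in Jinhua, against 49.1% and 68.6% in Landrace. ACACA, acetyl-CoA carboxylase, which makes malonyl-CoA, had 10 and 7 coding peaks in Jinhua and 8 and 8 in Landrace. ACSL1, which activates fatty acids with coenzyme A, had 5 and 4 in Jinhua and 2 and 5 in Landrace, and LPIN1, a phosphatidate phosphatase, had 3 and 4 in Jinhua and 6 and 5 in Landrace. GPAM, which starts glycerolipid synthesis by acylating glycerol 3-phosphate, had coding peaks in the Jinhua animals alone, 3 and 2, with a peak at 1992-2147 in both. GPAM input was 12.2 and 16.0 FPKM in Jinhua and 4.03 and 6.45 FPKM in Landrace, so the groups did not overlap in level either, as was the case in this direction for 30.2% of all tested genes. ELOVL6, the elongase of palmitate, had 0 coding peaks in every list at 347.1 to 859.6 FPKM.

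Genes of lipolysis and of the adipocyte also carried coding peaks. In the lipolysis list, 9 of 11 matched genes had a coding peak in at least 1 list and 5 in all 4. LIPE, hormone-sensitive lipase, had 2 and 2 in Jinhua and 3 and 3 in Landrace. PNPLA2, adipose triglyceride lipase, had a coding peak that begins at bases 922 and 919 in Jinhua and at bases 931 and 923 in Landrace. In the adipocyte list, 10 of 11 matched genes had a coding peak in at least 1 list and 5 in all 4. Over all tested genes, 65.4% had one in at least 1 list and 22.8% in all 4. The median level was 34.1 FPKM in the lipolysis list and 223 FPKM in the adipocyte list. CD36, the fatty acid translocase, had an early coding peak in all 4 animals. PLIN1 and CIDEC, proteins of the lipid droplet, had coding peaks in Jinhua 1 and Landrace 2 alone at levels of at least 1650 FPKM in each animal. The symbols ADIPOQ, FABP4 and LPL found no match and were not analysed here.

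The m6A machinery itself carried coding peaks. Of 9 matched writer genes, 9 had a coding peak in at least 1 list and 3 in all 4. By animal, 9 and 9 of them had one in Jinhua, against 3 in Landrace 1 and 8 in Landrace 2. Among all genes at 1 FPKM or more in the animal's input, 56.3% and 49.1% had one in Jinhua and 30.5% and 52.6% in Landrace, so Landrace 1 was lowest there too. The median level of the writer genes was 15.3 FPKM. Among all genes at 10 to 20 FPKM, 67.6% and 64.8% had one in Jinhua and 39.7% and 65.7% in Landrace. METTL3, the catalytic subunit, had 2 and 1 coding peaks in Jinhua and 0 and 2 in Landrace, at 19.9 and 18.4 FPKM in Jinhua and 9.33 and 14.9 FPKM in Landrace. METTL14, its partner, had a peak that begins at bases 1393 and 1387 in Jinhua and at base 1394 in Landrace 2, with 0 in Landrace 1, and WTAP, the adaptor of the complex, had 1 and 2 coding peaks in Jinhua and 0 and 1 in Landrace. ZC3H13, another subunit, had 8 and 7 in Jinhua and 4 and 7 in Landrace. The input level of 6 of the 9 writer genes was higher in both Jinhua than in both Landrace animals, with a list median of 0.65 (log2, Jinhua minus Landrace) against 0.15 over all tested genes, and 30.2% of all tested genes were higher in this way. In limma's test of input level 0 of the 9 passed an adjusted p under 0.05, and 0.0146% of all tested genes passed as higher. With median-ratio scaling the list median was 0.48 against -0.01 over all tested genes, and again 6 of 9 were higher in both Jinhua animals. Of the 6 matched genes of m6A erasers and readers, 5 had a coding peak in at least 1 list and 2 in all 4. Over all tested genes these shares were 65.4% and 22.8%. YTHDF2, a reader that promotes decay of methylated mRNA, had 3 and 2 coding peaks in Jinhua and 2 and 3 in Landrace.

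Each matched gene of the extracellular matrix carried a coding peak in at least 1 list. Of these 18 genes, 13 had one in all 4 lists, and the list's median level was 227 FPKM. Of all tested genes, 65.4% had one in at least 1 list and 22.8% in all 4. Among genes at 200 to 1000 FPKM, 72.9% and 65.7% had one in Jinhua, against 49.1% and 68.6% in Landrace. FN1, fibronectin, had 10 and 8 coding peaks in Jinhua and 6 and 10 in Landrace, and COL6A3, a chain of the microfibrillar collagen VI, had 9 and 8 in Jinhua and 7 and 9 in Landrace. COL5A1, a fibrillar collagen, had 10 and 9 in Jinhua and 0 and 8 in Landrace, although its level in Landrace 1, 399.2 FPKM, was the highest of the 4. Of the 16 matched muscle genes, 1 and 3 had a coding peak in the Jinhua animals, against 0 in Landrace 1 and 15 in Landrace 2. MYH7, a slow myosin heavy chain, had 9 coding peaks in Landrace 2 at 84.6 FPKM and 0 in the other animals at 2.58 to 5.53 FPKM. The MYH7 peaks count among the 2238 coding loci seen in Landrace 2 alone, and the muscle genes' part in the other counts was not tested.

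Markers of other cells and the early response genes, which rise quickly after stress or stimulation, also carried coding peaks. At least 1 list had a coding peak for 8 of 9 matched macrophage genes, 8 of 8 endothelial genes, 2 of 3 blood genes and 3 of 4 epithelial genes, where 65.4% of all tested genes had one. Of 15 matched early response genes, 12 had a coding peak in at least 1 list and 7 in all 4. A coding peak in all 4 lists was found for 22.8% of all tested genes. JUN, a subunit of the AP-1 transcription factor, had a coding peak in each animal at 169.7 and 40.8 FPKM in Jinhua and 375.1 and 110.1 FPKM in Landrace. FOS, another AP-1 subunit, had 2 and 1 in Jinhua and 0 and 2 in Landrace, where Landrace 1 was again the highest in level, with 524.8 FPKM.

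No gene with a coding peak passed the test of input level between the breeds. With limma on log2(FPKM + 1), 0 of the 8962 tested genes with a coding peak were called at a Benjamini-Hochberg adjusted p under 0.05. Of all 13693 tested genes, 0.0146% were called higher and 0.0219% lower in Jinhua, and these 5 genes had neither a symbol nor a coding peak. At an unadjusted p under 0.05 in limma, 526 of the 8962 genes with a coding peak were higher and 308 lower. Of all 13693 tested genes, 801 were higher and 530 lower. With median-ratio scaling 293 genes with a coding peak were higher and 442 lower, against 488 and 721 of all tested genes. Both Jinhua animals were above both Landrace animals in 31.3% of the coding-peak genes, against 30.2% of all tested genes, and below them in 18.5%, against 18.1%. The median log2 difference was 0.15 in genes with a coding peak in any list and 0.15 in all tested genes, and it was 0.05 in those with one in all 4 lists. Median-ratio scaling brought the median to -0.02 in genes with a coding peak, so this direction depends on the scaling.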

How the data were processed

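Per the labels' protocols, total RNA came from TRIzol extraction, bead-purified mRNA was used, and the library kit was stranded. The submitters' processing notes name TopHat2 2.0.14 and the builds Sscrofa10.2 and susScr3 without saying how each was used. The peak caller, its threshold and the quantifier are not given in the sources used here. Expression values deposited by the authors were taken as FPKM, a unit inferred from the values and, per the file headers, from how the gene column is named, for 22676 gene IDs. Peak lists deposited by the authors, 1 per IP library and not pooled, give first and last base on a transcript and a location, with no score, p-value or read number. A further 4 expression columns and 4 lists were not analysed here. Positions are on the transcript models, not on chromosomes, and no sequence is shown because no pig genome was used here.

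Peaks of different animals were compared on the same transcript at an overlap of 1 base, and loci are coding peaks merged with any overlapping peak. Early means a start at base 200 or before, and abutting means a 3' UTR peak that starts within 1 base after the coding peak's end. Breeds were compared by two-sided exact permutation tests over 2 against 2 animals, and parts of the same list by exact sign flips over 4 animals, with 6 such comparisons adjusted by Benjamini-Hochberg. Replicates were separate animals. Input levels were tested with limma 3.58.1 (R 4.3.3, mean-variance trend) on log2(FPKM + 1) at a mean FPKM of at least 1, a scale that understates changes of low genes. Other steps used Python 3.11.15, numpy 2.4.6, pandas 2.3.3, scipy 1.17.1 and matplotlib 3.10.9, and the steps were tested on simulated data. Intervals are Wilson 95% intervals and cover counting error only.

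The members, lists and tests were chosen with earlier results of these data known. The 12 gene lists cover adipocyte functions, the m6A machinery and other cell types. Named genes are the 10 with the highest lowest number of coding peaks over the lists, and 6 in each direction of the breed-consistent loci at 5 FPKM or more, ranked by the lower FPKM of the animals that lack the peak. They are also the 6 with a coding peak, the 6 with an early one and the 6 with an abutting one in all 4 lists at the highest lowest FPKM, of which the last gave 0 genes, list members, and genes that limma called, which have no coding peak. The set with a coding peak in all 4 lists included RPS27, EEF1A1, VIM, RPS12 and FASN, and 1 further gene is not reported here. The tabulations of the base that sets the location, of label changes, of near peaks and of early peaks by level were chosen after seeing the data. Gene symbols came from the authors' lists or a name table. ZFP36 and NID1 each matched 2 gene IDs and their peaks are uncertain. Same-numbered animals of the breeds deviated from their group means in opposite directions (correlation over genes -0.384), so numbers were not used as pairs. Alternatives covered the overlap rule, the early limit, gene filters, pseudocount, scaling, a replicate block and leaving out each animal.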

Additional observations from a re-analysis of the deposited data

Results flagged for a closer look

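Jinhua 2 stood far from the other 3 animals in the share of coding peaks that abut a 3' UTR peak. The share was 1.24% in Jinhua 2, against 0.697% in Jinhua 1 and 0.626% and 0.649% in the Landrace animals. The gap of Jinhua 2 to its nearest neighbour took 0.885 of the whole range, above Dixon's 95% critical value for 4 samples. It was the only one of 10 measures past that value, and chance alone passes about 1 in 20 such groups.

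The difference in recurrence between coding and 3' UTR peaks had opposite signs in the breeds. It was 3.11 and 0.616 percentage points in the Jinhua animals and -1.87 and -1.74 points in the Landrace animals, so the breed means lay 3.67 points apart. The difference between the breeds was not tested.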

How the results depend on the processing

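As a share of coding peaks, early peaks were fewer in Jinhua than in Landrace under each alternative run. The difference was -3.31 to -1.36 points when each animal was left out in turn. Counted by gene within a level of input, the breeds overlapped at each level from 1 FPKM upward except 100 to 200 FPKM. Among the breed differences, the coding share turned to -0.00733 points by covered bases and ran from -0.716 (without Landrace 1) to 1.19 points. Coding peaks per gene ran from -0.0603 (without Landrace 1) to 0.291, and the abutting share from 0.0591 (without Jinhua 2) to 0.604 points. Coding minus 3' UTR recurrence was -0.517 points when 50% of the shorter peak had to overlap, -1.42 when 50% of both had to, and -1.33 to 1.31 with an animal left out. It was -0.654 without Jinhua 1 and -1.33 without Landrace 2. Abutting minus other coding peaks was -2.05 and -8.14 points under the same overlap rules, and 5.74 to 10.1 with an animal left out. Early minus later recurrence stayed at 2.56 to 3.36 points, width at 0.667 to 1.67 bases, and the level differences at 0.43 to 0.45 and 0.66 to 0.68 (log2). The cause of these changes was not tested.

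Jinhua-only coding loci numbered 868 in genes at 5 FPKM or more in all 4 libraries, and 530 in genes with a peak in all 4 lists, a limit chosen after seeing the data. With an animal left out they numbered 1621 to 4307, and Landrace-only loci 663 to 2712. In each such run fewer animals have to have the peak or fewer have to lack it. Without Jinhua 1 or Jinhua 2 the 1365 Jinhua-only loci became 3280 and 3836, and without Landrace 1 or Landrace 2 they became 1621 and 4307. Landrace-only loci were 1100 without Jinhua 1, 2712 without Landrace 1 and 944 without Landrace 2.

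Among all genes, limma called 1 higher in Jinhua with no filter on low values. It called 0 higher and 0 lower with median-ratio scaling, with the replicate block, with the crossed replicate block (chosen after seeing the data, for numbers whose deviations had a correlation of -0.384) and without each animal. At an unadjusted p under 0.05, the replicate block left 695 genes and the crossed block 1603. Genes with a coding peak gave 0 calls under each of these alternatives. With the replicate block, the exact sign-flip p was 0.5 for the early share and for the abutting share, the smallest for 2 pairs. Restricting the early share to genes with a coding peak in all 4 lists (-3.34 points) and the coding share to genes with any peak in all 4 lists were also chosen after seeing the data. The peak lists carry no read numbers, so weak and strong peaks count alike, and a missing peak cannot be told apart from one too shallow to be listed.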
